A study of Mus musculus with 4 samples.

Results

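Pmaip1 and the BCL2 family were described here in cells sorted by a gate for osteoblasts from 2 places in mouse bone marrow. The members were 10 listed mouse symbols, Pmaip1, Bbc3, Bcl2l11, Bid, Bad, Bax, Bak1, Bcl2, Bcl2l1 and Mcl1, and all probe sets annotated to exactly 1 of them were taken. Of the 10, 9 had such a probe set, 29 in all, out of 18193 genes with a probe set of their own, and Bax was not analysed here. The set was chosen by the measured values of Pmaip1, picked as higher in the trabecular area with little spread within areas, so its values for this comparison are given as a description, with no test. The other genes were listed because they belong to the family, with earlier results of these data known.

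The cells came from the marrow of adult recipient NOD/SCID mice of the strain NOD.CB17-Prkdc scid/J, in which a mutation of the DNA repair kinase gene Prkdc blocks the formation of mature B and T cells, and both areas share that mutation. They were sorted as negative for lineage antigens, CD45, CD31 and Sca1 and positive for the integrin CD51, a gate for osteoblasts, either from the trabecular bone area (2 arrays) or from the long bone area (2 arrays). The submitters call the 2 arrays of an area biological replicates, and no label says which or how many mice lie behind each, so a p-value here covers the spread between these arrays and nothing wider. The comparison asks how cells of this gate differ between the 2 places.

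Values are log2 expression, centred for each probe set on its own median over the 4 arrays, so that a gene has differences between arrays but no level. Every value below is on that scale, and every difference is the trabecular mean minus the long bone mean. A coarse level was still readable from the step size of the stored numbers: a probe set was called bright where the step was that of log2 levels of 8 and above. Bright probe sets made up 34.1% of the 41529 that could be read. Since the level of a probe set also depends on its probes, no level is set against that of another gene.

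The BCL2 family decides whether the mitochondrial outer membrane stays sealed. The survival proteins BCL2, BCL-XL (Bcl2l1) and MCL1 hold the pore-forming effectors BAX and BAK in check, and the BH3-only proteins NOXA (Pmaip1), PUMA (Bbc3), BIM (Bcl2l11), BID and BAD release that brake by binding the survival proteins, BIM, PUMA and truncated BID also by acting on the effectors. NOXA binds MCL1 in preference to BCL2 and BCL-XL, and BAD binds BCL2 and BCL-XL. In bone, this family takes part in the death of osteoblasts and in the survival of osteocytes.

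The promoter windows of 3 members are shown, as those of the genes whose areas did not overlap by the largest amounts in each direction among members with 1 start in the table used, Pmaip1 not included: Mcl1 and Bid were higher in the trabecular area and Bcl2 was lower. They run from 250 bases before to 50 bases after that start, 5′ to 3′, from RefSeq on GRCm38.p6. For Mcl1 and Bid that start lies inside the RefSeq locus of the gene, chr3:95656944-95663179 and chr6:120893119-120917062 in that order. Capitals mark the letters TGACG, the core of the cAMP response element bound by CREB and ATF factors, and GGGGCGGGG, a GC box, on either strand (CGTCA and CCCCGCCCC on the other); the 2 motifs share no position in these windows.
Mcl1, chr3:95658471-95658770, plus strand: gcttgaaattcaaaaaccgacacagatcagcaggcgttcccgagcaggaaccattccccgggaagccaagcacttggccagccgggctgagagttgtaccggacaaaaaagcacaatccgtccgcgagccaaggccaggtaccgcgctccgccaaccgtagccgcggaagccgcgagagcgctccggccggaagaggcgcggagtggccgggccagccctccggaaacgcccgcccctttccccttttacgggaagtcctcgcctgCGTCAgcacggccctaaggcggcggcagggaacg
Bid, chr6:120916775-120917074, minus strand: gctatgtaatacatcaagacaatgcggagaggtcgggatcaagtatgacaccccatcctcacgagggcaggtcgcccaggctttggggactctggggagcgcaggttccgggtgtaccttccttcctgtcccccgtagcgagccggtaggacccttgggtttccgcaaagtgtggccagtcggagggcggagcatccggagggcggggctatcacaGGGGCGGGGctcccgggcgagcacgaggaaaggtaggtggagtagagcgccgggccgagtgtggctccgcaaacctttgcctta
Bcl2, chr1:106714241-106714540, minus strand: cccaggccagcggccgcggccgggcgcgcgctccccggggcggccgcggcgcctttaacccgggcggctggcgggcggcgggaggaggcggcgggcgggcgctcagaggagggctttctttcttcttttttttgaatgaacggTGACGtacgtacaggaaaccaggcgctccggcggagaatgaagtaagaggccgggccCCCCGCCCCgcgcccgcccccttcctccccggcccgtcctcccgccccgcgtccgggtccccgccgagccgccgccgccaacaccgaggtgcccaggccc
TGACG occurred once in the Mcl1 window and once in the Bcl2 window, and GGGGCGGGG once each in those of Bid and Bcl2. Of 32851 promoter windows of the same length, 20.8% held TGACG and 11.4% held GGGGCGGGG. The match is a description of letters: TGACG was held by Bcl2, which was lower, and by 1 of the 2 genes shown that were higher.

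Pmaip1, which encodes NOXA, was read by 1 probe set, a bright one. It stood at 0.75 and 0.86 on trabecular arrays 1 and 2, against -1.17 and -0.75 on long bone arrays 1 and 2. Both trabecular arrays lay above both long bone arrays, with a gap of 1.51 between the nearest. The trabecular mean was 0.81 ± 0.07 and the long bone mean -0.96 ± 0.29 (SD, n = 2 for both), a difference of 1.77, or 3.40-fold. It was the 11th highest difference of the 18193 genes. Its spread was small against its difference, but not among genes: the pooled SD within areas was 0.214, against a median of 0.152 over all genes, and 67.5% of genes had a smaller one. With each array left out in turn the difference stayed between 1.56 and 1.97, the lowest when long bone array 1 and the highest when long bone array 2 was left out.

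**Figure D1:**
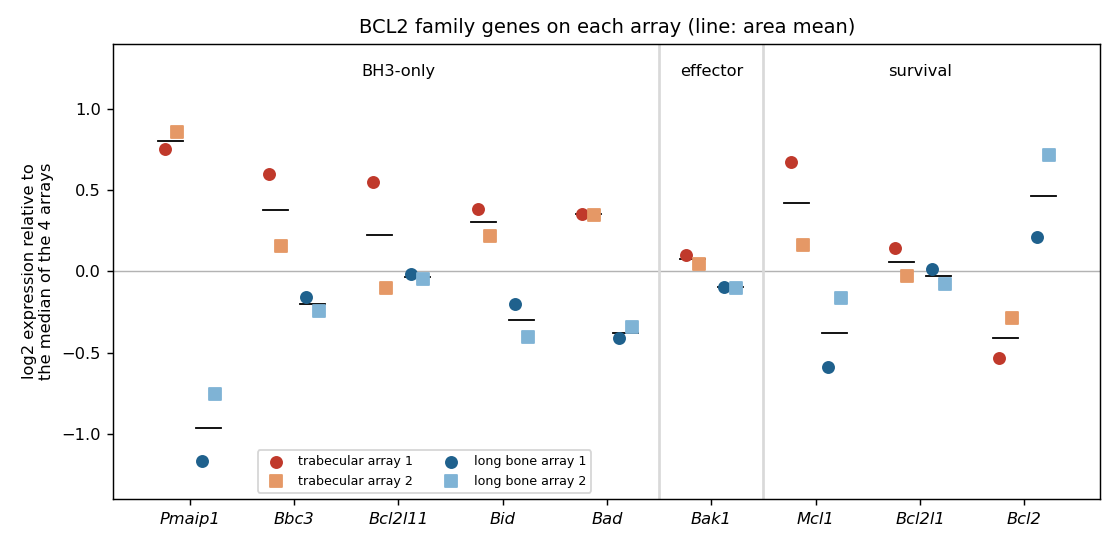
Log2 expression of the 9 measured family genes, centred on each probe set's median (y axis), by gene (x axis). Points are arrays, with trabecular arrays left of long bone arrays, and lines are the area means; Pmaip1 has the widest gap between areas, and Bcl2 is the gene with both trabecular arrays below both long bone arrays.

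Among the other 8 measured members, 7 were higher in the trabecular area, where 54.6% of all genes were, and 1, Bcl2, was lower. In 5 of these 8 both trabecular arrays lay above both long bone arrays, in 1 below, and in 2 the areas overlapped. Over all genes, 29.9% lay above without overlap and 21.4% below. No member passed the test: with limma, 0 of the 8 had a Benjamini-Hochberg adjusted p under 0.05 over all 18193 genes, where 0.0% of genes did, and the adjusted p ran from 0.240 to 0.769. At an unadjusted p under 0.05 there were 5 of 8, Bbc3, Bid, Bad, Mcl1 and Bcl2, against 15.5% of all genes, 10.8% higher and 4.62% lower. The ordinary t statistic and a trend in the prior variance also called 0 of the 8. With 2 arrays per area an exact permutation test cannot go below p = 0.333.

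Of the BH3-only genes besides Pmaip1, Bad had the least spread. Bad, whose protein is switched off by survival kinases that phosphorylate it, stood at 0.36 and 0.35 on trabecular arrays 1 and 2, against -0.41 and -0.34 on long bone arrays 1 and 2. The areas did not overlap, and the difference was 0.73 (SE 0.12, 95% interval 0.41 to 1.04, limma adjusted p = 0.240). Its pooled SD of 0.033 was undercut by 4.47% of genes. Both of its probe sets lay apart in the same direction, by 0.64 for the bright one and 0.82 for the other, and with single arrays left out the difference ran from 0.70 to 0.76.

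Bid encodes the protein that carries the death receptor signal to mitochondria after caspase 8 cuts it. It stood at 0.39 and 0.22 on the trabecular arrays, against -0.20 and -0.40 on the long bone arrays. The areas did not overlap, and the difference was 0.60 (SE 0.15, interval 0.22 to 0.99, limma adjusted p = 0.252). Its 3 probe sets did not read alike: 1417045_at and 1447873_x_at differed by 0.78 and 0.90 without overlap, while 1448560_at differed by 0.13 with overlap.

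Bbc3, the PUMA gene and like Pmaip1 a p53 target, had 1 probe set, which was not bright. It stood at 0.60 and 0.16 on the trabecular arrays, against -0.16 and -0.24 on the long bone arrays. The trabecular arrays were both higher, trabecular array 1 by far the more, and the difference of 0.58 (SE 0.19, interval 0.07 to 1.08, limma adjusted p = 0.296) came to 0.36 without that array.

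Bcl2l11, the BIM gene and a target of FOXO factors, stood at 0.55 and -0.10 on the trabecular arrays, against -0.02 and -0.05 on the long bone arrays. Trabecular array 1 alone was high and trabecular array 2 was the lowest of the 4, so the areas overlapped. The difference of 0.26 (interval -0.39 to 0.91, limma adjusted p = 0.636) turned to -0.07 without trabecular array 1. Its 5 probe sets ran from -0.13 to 0.71. The 2 with differences of 0.62 and 0.71 stood at 0.94 and 1.00 on trabecular array 1 and at 0.06 and 0.12 on trabecular array 2, and did not overlap between areas, while the other 3 did.

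The effector Bak1, one of the pair that forms the pore, stood at 0.10 and 0.05 on the trabecular arrays, against -0.10 and -0.10 on the long bone arrays. The areas did not overlap, but the difference was only 0.17 (SE 0.12, interval -0.14 to 0.49, limma adjusted p = 0.509), and the probe sets were at 0.02, with overlap, and 0.33, without.

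The survival genes went separate ways. Mcl1, the short-lived survival protein that NOXA binds, was read by 6 probe sets, and all 6 were bright and higher in the trabecular area without overlap, by 0.64 to 1.23. As a gene it stood at 0.67 and 0.16 on the trabecular arrays, against -0.59 and -0.16 on the long bone arrays. The difference was 0.80 (SE 0.25, interval 0.13 to 1.46, limma adjusted p = 0.286). Trabecular array 1 and long bone array 1 carried most of it: the difference was 0.54 without the first and 0.58 without the second, while leaving out the second array of the trabecular or of the long bone pair gave 1.05 or 1.01. The probe set at 1.23, 1416881_at, stood at 1.48 on trabecular array 1 and 0.31 on trabecular array 2, against -0.36 and -0.31 on the long bone arrays.

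Bcl2, the founding survival gene of the family, stood at -0.53 and -0.29 on the trabecular arrays, against 0.21 and 0.72 on the long bone arrays. Both trabecular arrays were lower, and long bone array 2 was the highest. The difference was -0.87 (SE 0.22, interval -1.46 to -0.29, limma adjusted p = 0.256), and -0.62 without long bone array 2. Without long bone array 1 it was -1.13, where long bone array 2 alone stood for that area. Its probe sets spread more widely than those of any other measured member. At 1437122_at it stood at -0.79 and -0.72 on the trabecular arrays, against 0.72 and 1.27 on the long bone arrays, a difference of -1.75. Others, 1440770_at, 1457687_at and 1443837_x_at, differed by -1.38, -0.69 and -0.58 without overlap, and 1422938_at differed by 0.04 with overlap. Of the 5, only 1457687_at was bright.

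Bcl2l1, the BCL-XL gene, stood at 0.15 and -0.03 on the trabecular arrays, against 0.02 and -0.08 on the long bone arrays. The areas overlapped, and the difference was 0.09 with an interval from -0.26 to 0.44 (limma adjusted p = 0.769). With single arrays left out it ran from 0.0043 to 0.18. Its 4 probe sets lay between -0.05 and 0.20.

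**Figure D2:**
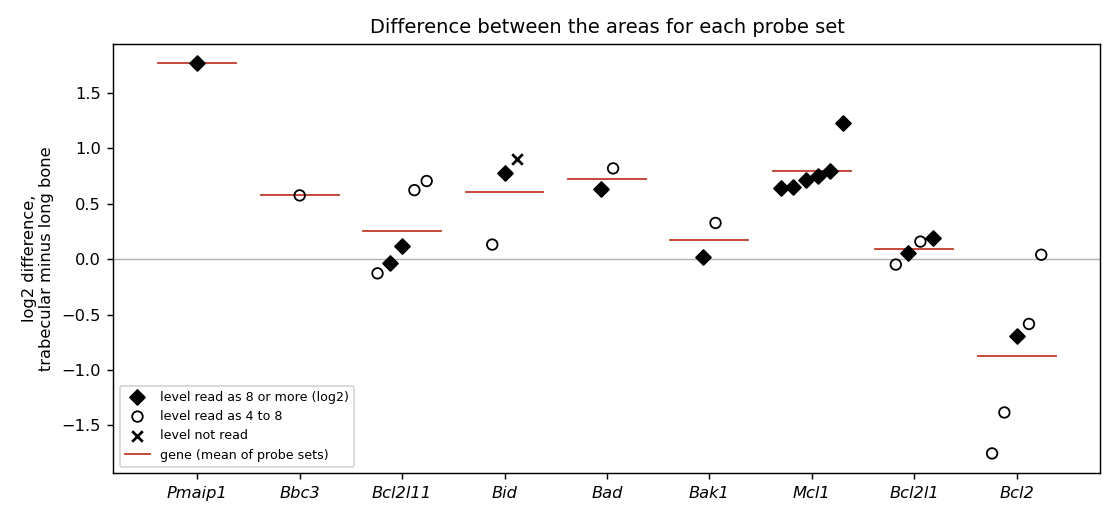
Log2 difference between the areas, trabecular minus long bone (y axis), for each of the 29 probe sets, by gene (x axis). Filled diamonds are probe sets with a level read as 8 or more, open circles those read as 4 to 8, and the cross is 1 whose level could not be read; all 6 Mcl1 probe sets lie between 0.64 and 1.23, while those of Bcl2 reach from -1.75 to 0.04.

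Over all 29 probe sets, 16 lay above without overlap, 4 below, all of Bcl2, and 9 overlapped. Over the 45037 probe sets of the table, 25.9% lay above without overlap and 26.2% below. Bright probe sets leaned toward the trabecular area in the table as a whole, with 38.5% above without overlap, 16.8% below and a median of 0.16. Of the 14 bright member probe sets other than that of Pmaip1, 9 lay above without overlap, 1 below and 4 overlapped, with a median of 0.64. Since 6 of the 9 are readings of Mcl1 alone, these are not separate observations.

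A shift of a whole array cancels in the difference between 2 members on that array, whereas quantile normalization, which also stretches values, alters it. Pmaip1 minus Mcl1 was 0.08 and 0.69 on the trabecular arrays, against -0.58 and -0.59 on the long bone arrays, a difference of 0.97 between the areas. Pmaip1 minus Bcl2 was 1.28 and 1.15 on the trabecular arrays, against -1.38 and -1.47 on the long bone arrays. Mcl1 minus Bcl2 was 1.20 and 0.45 on the trabecular arrays, against -0.80 and -0.88 on the long bone arrays. Pmaip1 thus lay higher relative to Mcl1 and to Bcl2, and Mcl1 higher relative to Bcl2, on both trabecular arrays. The values that involve Mcl1 had a wide spread between these 2 arrays. Pmaip1 minus Mcl1 and Pmaip1 minus Bcl2 contain the Pmaip1 difference that chose the set.

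**Figure D3:**
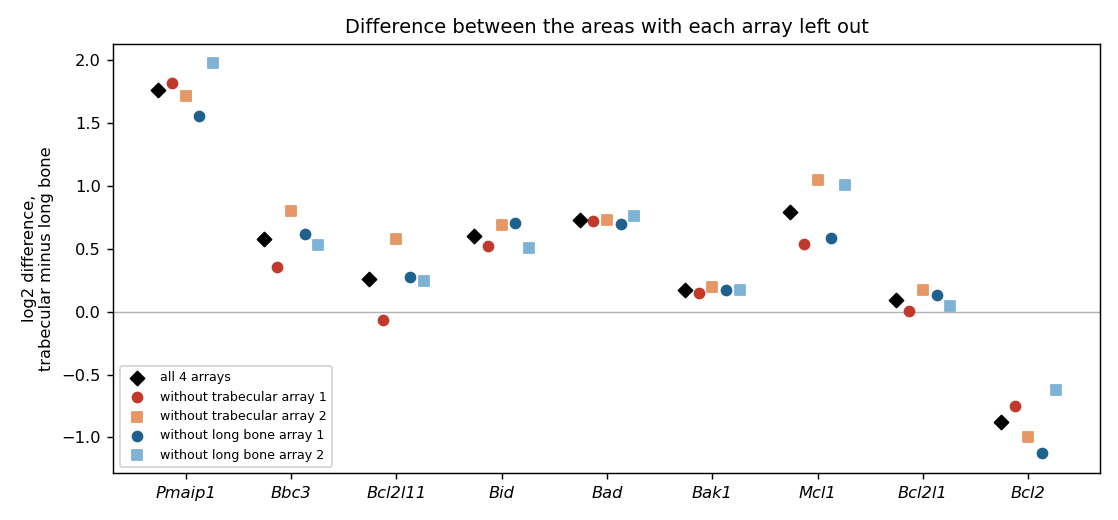
Log2 difference between the areas, trabecular minus long bone (y axis), for each family gene (x axis) with all 4 arrays (black) and with each array left out. The sign of Bcl2l11 turns to -0.07 without trabecular array 1, and the values of Pmaip1 stay between 1.56 and 1.97.

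The genes with the pattern nearest to Pmaip1, by Euclidean distance between their values on the 4 arrays, were Nfil3 (distance 0.558), Nifk (0.569), Frat2 (0.618), Yars2 (0.639), AA467197 (0.645) and Cd55 (0.658). Nfil3, a leucine zipper transcription factor, stood at 0.91 and 0.46 on the trabecular arrays, against -0.97 and -0.46 on the long bone arrays. Cd55, a complement regulator, differed by 1.35 between the areas. The nearest family member was Bad, at a distance of 1.08 with 286 genes nearer, then Mcl1, also at 1.08, with 291 nearer. Bcl2 was the farthest, at 2.65.

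Of 17 other listed members of the family 12 were measured. On the trabecular arrays 8 were higher and 4 lower, 5 and 2 of them without overlap, with a median difference of 0.06, against 0.03 over all genes. Over bright probe sets alone, which 5 of the 12 had, the median was 0.51, against 0.19 over all genes. The mitophagy receptor Bnip3 differed by 0.60 and Bcl2l13 by 0.58, while the BH3-only gene Bmf was at -0.15 (-0.10 without long bone array 2) and the effector relative Bok at -0.07. Bnip3 was at 0.32 without trabecular array 1 and Bcl2l13 at 0.25 without long bone array 2. None of the 12 was called by limma, and 2 had an unadjusted p under 0.05, both higher in the trabecular area.

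Downstream of the pore, 13 of 14 measured mitochondrial death effectors were higher in the trabecular area, 7 of them without overlap and 0 lower without overlap, with a median of 0.32. To be read beside the counts of this and the other lists, 54.6% of all genes were higher, 29.9% higher without overlap and 21.4% lower without overlap, and 15.5% had an unadjusted p under 0.05. Casp2, an initiator caspase, differed by 0.81 (limma adjusted p = 0.297) and the outer membrane channel Vdac2, which binds BAK, by 0.74 (0.352). Both rested in part on long bone array 2, without which they were at 0.48 and 0.32. The initiator caspase of the apoptosome, Casp9, differed by 0.24 and cytochrome c, Cycs, by 0.29 (0.14 without long bone array 1). The scaffold Apaf1 was at 0.11, a value that turned to -0.29 without long bone array 2 and was 0.51 when array 1 of that area was left out. No member was called, and 3 had an unadjusted p under 0.05. The inhibitors of apoptosis went both ways (4 higher, 3 lower, median 0.12): Birc2, the cIAP1 gene, differed by 0.83 (0.44 without long bone array 2) and Naip2 by 0.65, while Birc6 was at -0.55 (-0.29 without long bone array 1) and Xiap at 0.12. Xiap turned to -0.05 without long bone array 2, and was at 0.29 when array 1 of that area was left out. In the death receptor pathway 8 of 10 were higher, 4 of them without overlap, with a median of 0.20. Its adaptors Traf2 and Tradd differed by 0.64 and 0.54, with Traf2 at 0.37 without long bone array 2. The receptor gene Fas was at 0.23, with overlap, and at 0.03 without trabecular array 1.

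The p53 list holds known regulators and targets of p53, the factor best known to induce Pmaip1 and Bbc3. Trp53, the p53 gene itself, was listed but was not among the measured genes. Of 24 measured genes 17 were higher in the trabecular area, 11 without overlap, and 4 were lower without overlap, with a median of 0.24. Plk3, a stress kinase, stood at 1.37 and 0.16 on the trabecular arrays, against -1.58 and -0.16 on the long bone arrays. Its difference of 1.63 (limma adjusted p = 0.331) came to 1.03 without trabecular array 1 and 0.92 without long bone array 1. Ddit4, an inhibitor of mTORC1, stood at 0.94 and 0.46 on the trabecular arrays, against -0.46 and -0.74 on the long bone arrays, a difference of 1.30 (SE 0.22, limma adjusted p = 0.240). Eda2r and Phlda3, both p53 targets, differed by -0.29 and -0.26, and by -0.18 and -0.16 without long bone array 2 and trabecular array 2 in that order. No gene of the list was called, and 4 had an unadjusted p under 0.05.

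The integrated stress response, in which kinases that phosphorylate eIF2-alpha raise the factor ATF4, is a further known route to Pmaip1, among several. Of 20 measured genes 15 were higher in the trabecular area, 8 without overlap, and 2 were lower without overlap, with a median of 0.26. Besides Ddit4, which is on both lists, the endoplasmic reticulum stress gene Herpud1 differed by 0.95 (limma adjusted p = 0.291), and by 0.57 without long bone array 1. Eif2ak2, the double-stranded RNA kinase, and Vldlr, a lipoprotein receptor, were at -0.42 and -0.34, Eif2ak2 at -0.25 without long bone array 1. No gene was called, and 5 had an unadjusted p under 0.05, all higher. In 9 measured FOXO factors and survival kinases the median was 0.19, with Foxo3 at 0.61, Sgk1 at 0.54 (0.29 without long bone array 1), Foxo1 at -0.39 and Foxo4 at -0.16 (-0.08 without trabecular array 2). The 11 measured genes of MCL1 and NOXA turnover had a median of 0.05, with Cul3, a ubiquitin ligase scaffold, at 0.52 (0.27 without long bone array 2), the mitochondrial ligase Marchf5 at 0.22, the MCL1 ligase Huwe1 at -0.22 (-0.03 without trabecular array 1) and the MCL1 ligase Trim17 at -0.14 (-0.07 without trabecular array 2). These counts do not show that any list differs from genes at large. Over genes represented by bright probe sets alone, the median of all genes was itself 0.19, against 0.46 for the p53 list, 0.44 for the stress response list, 0.36 for the death receptor pathway, 0.36 for FOXO factors and survival kinases and 0.33 for the death effectors, with the inhibitors of apoptosis at 0.17 and MCL1 and NOXA turnover at 0.05.

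**Figure D4:**
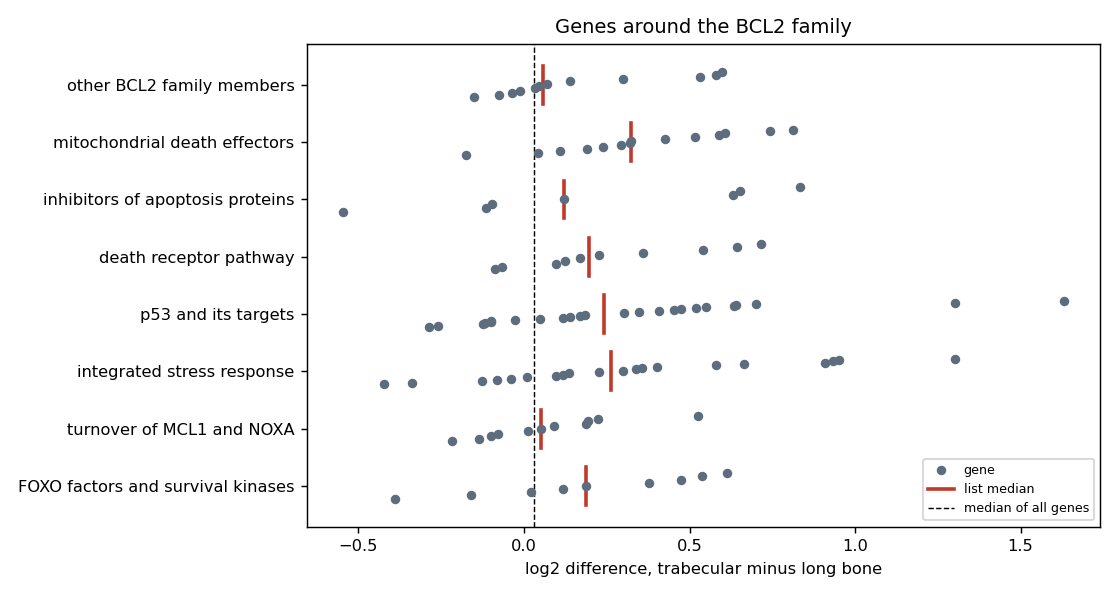
Log2 difference between the areas, trabecular minus long bone (x axis), for each measured gene (points) of 8 lists of genes around the BCL2 family (y axis). Red bars are list medians, from 0.05 to 0.32, and the dashed line is the median of all genes, 0.03.

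Markers of osteoblasts and of other cell types differed between the areas as well, and their part in the values above was not tested. In bulk samples like these, a different share of cells of a type and a different amount of RNA per cell cannot be told apart. The median value of 8 measured osteoblast markers was -0.78 and -0.56 on the trabecular arrays, against 0.47 and 0.82 on the long bone arrays, and that of 13 chondrocyte markers -1.42 and -1.33 against 1.65 and 1.26. All 21 of these were lower in the trabecular area without overlap. The median of 10 reticular stroma markers was 0.05 and -0.58 on the trabecular arrays, against -0.11 and 1.54 on the long bone arrays, and so high on long bone array 2 alone. For 16 neutrophil markers the median was 0.03 and 0.17 on the trabecular arrays, against -0.06 and -0.21 on the long bone arrays. Of these markers 12 were higher, 7 of them without overlap, where all genes had 54.6% and 29.9%. With single arrays left out, the median difference ran from 0.07 to 0.44 for the neutrophil markers and from -1.80 to -0.17 for the reticular stroma markers. Monocyte and macrophage markers went both ways, from -1.04 to 2.06, with a median difference of 0.05 that ran from -0.14 to 0.25 with single arrays left out. The median was -0.08 for eosinophil, basophil and mast cell markers, -0.13 for erythroid, -0.37 for megakaryocyte, -0.17 for B cell and plasma cell, -0.11 for T and NK cell and -0.07 for endothelial markers. Without long bone array 2 these came to 0.08, 0.11, -0.03, 0.0087, -0.09 and -0.03 in the same order, so that 3 of the 6 turned. The erythroid median also turned to 0.09 without trabecular array 1, and the endothelial median to 0.03 without trabecular array 2. At least 1 bright probe set was found for 4 of the 8 osteoblast markers, for 1 of the 13 chondrocyte markers, for 10 of the 16 neutrophil markers and for 7 of the 10 monocyte and macrophage markers, against 46.6% of all genes. The gate excluded CD45, which neutrophils, monocytes and macrophages carry. A marker whose values cross the level of 8 between arrays is not read as bright. Ptprc, the CD45 gene, stood at -0.49 and -0.10 on the trabecular arrays, against 0.59 and -0.50 on the long bone arrays, and 1 of its 2 probe sets was bright. Itgav, the gene of the sorted antigen CD51, differed by -0.13.

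Long bone array 2 stood apart from the other arrays. The log2 SD over probe sets was 0.484 on it, and 0.271 to 0.312 on the others, and the Gapdh control's 5' probe set minus its 3' one was -1.16 on it, against 0.31 and 0.09 on the trabecular arrays and -0.09 on long bone array 1. The 9 spiked hybridisation controls had medians of -0.13 and -0.23 on the trabecular arrays, against 0.22 and 0.23 on the long bone arrays. Setting them to 0 on every array moved the median difference of all genes to 0.43, and Bcl2 then differed by -0.47 and Bcl2l1 by 0.49.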

How the data were processed

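Amplified, biotin-labelled total RNA of the sorted cells was hybridised to oligonucleotide arrays, per the labels. A human array is named in the design text of the series, while the probe sets match a mouse array. The values deposited by the authors are log2 expression, made with RMA (no version given) per the submitters' processing notes. For all 45101 probe sets the median over the 4 arrays is 0, so the deposited values were also centred. The log base and the centring software are unstated in those notes; log2 is what RMA gives. Scanner intensities were not used here, so the number of arrays, and no read depth, limits the precision.

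After 64 controls were left out, 34945 of 45037 probe sets had 1 gene in the annotation used, and 34741 of them matched RefSeq genes of GRCm38.p6 by gene ID (0 symbols changed). A gene was the mean of its probe sets. Areas were set against each other in limma 3.58.1 under R 4.3.3 (no trend, 2 residual and 2.17 prior degrees of freedom for probe sets), trabecular minus long bone, with Benjamini-Hochberg adjustment over the whole table and 95% intervals from the fit. The fit was tested on simulated data, where it often missed changes, so a gene not called is not shown to be unchanged. Level bands came from the step of the stored 32-bit numbers, read where at least 3 values were 0.001 or more in size.

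Members and lists were chosen with earlier results of these data known. Named were all members, up to 2 genes per list and direction without overlap, and the 6 genes nearest to Pmaip1, leaving out predicted genes. Casp9, Cycs, Apaf1, Xiap and Fas were named after their values were seen. The replicate numbers do not pair the samples by any label, and the deviations of same-numbered arrays correlated at -0.18. Between the arrays of an area, 107 (trabecular) and 65 (long bone) values were identical. Alternatives were other scalings, gene summaries and statistics, a replicate block and each array left out.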

Additional observations from a re-analysis of the deposited data

How the results depend on the processing

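The direction of 8 of the 9 members held under every alternative run. Only Bcl2l11 turned, running from -0.0655 (without trabecular array 1) to 0.58 with single arrays left out. Bcl2l1 came down to 0.0043 without trabecular array 1 and Bak1 to 0.02 over bright probe sets alone, so their direction is weakly held. Pmaip1 ran from 1.56 to 1.97 with single arrays left out, and was at 2.11 after quantile normalization and at 2.17 with the hybridisation controls set to 0. That scaling put the median difference of all genes at 0.43, against 0.03 in the values as deposited. It called 2857 of 18193 genes and 2 probe sets at a limma adjusted p under 0.05. Among these genes were 5 of the 8 members other than Pmaip1. Of the 9538 genes with an unadjusted p under 0.05 in that scaling, 9362 were higher in the trabecular area. With single arrays left out, 0 to 1603 genes, 0 probe sets and 0 to 1 of the 8 members were called. A trend in the prior variance called 40 genes and 281 probe sets, the ordinary t statistic 1 gene and 1 probe set, and the probe set with the largest SD as the gene 2 genes. With all arrays and the main settings, 0 genes and 0 probe sets were called. The replicate block called 0 genes and 0 probe sets, left the Pmaip1 difference at 1.77 and changed no call. The correlation of same-numbered arrays lay below 0, and a block with crossed numbers, chosen after seeing the data, called 0 genes and 0 probe sets too. By gene summary, Bid ran from 0.45 without probe sets ending in _s_at or _x_at to 0.90 at its probe set with the largest SD, and Bcl2 was at -1.75 in the second case. With single arrays left out, list medians ran from 0.0076 to 0.17 for the other BCL2 family genes, 0.25 to 0.62 for the death effectors, 0.12 to 0.29 for the inhibitors of apoptosis, 0.09 to 0.35 for the death receptor pathway, 0.17 to 0.29 for the p53 list, 0.18 to 0.44 for the stress response, 0.0015 to 0.16 for MCL1 and NOXA turnover and 0.16 to 0.38 for FOXO factors and survival kinases. Over bright probe sets alone Bak1 came to 0.02 and Bcl2l11 to 0.04. The causes were not tested. Signal over background could not be read from centred values, so the effect of dim probes is known only by level band.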
